A study of Mus musculus with 4 samples.

Results

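The S-phase genes described here are 40 genes that vertebrate cells transcribe around the replication of their DNA. They were chosen by symbol, from a fixed list commonly used to score single cells for DNA synthesis, and not by any value measured here. All 40 symbols were found among the 31053 genes counted in each of 2 pooled single-cell experiments on mouse T-cell progenitors. The cells were grown from bone marrow on OP9-Dll1 stroma, which carries a Notch ligand, with IL-7 and Flt3-ligand (10 ng/ml of each cytokine). All donors carried a Bcl2 transgene, whose product protects cells from apoptosis, so every culture, control or not, shared it. The promoter of that transgene is not given in the sources used here. One arm used B6.Bcl2 transgenic mice of 8 to 10 weeks, with the MSCV-Runx1-mCherry retrovirus for overexpression or MSCV-empty-mCherry as control. The other arm used B6.Cas9;Bcl2 transgenic mice, whose age is not given. It received E42-gRunx1-hNGFR together with E42-gRunx3-mTurquoise, with 3 guide pairs for each gene, or E42-gControl vectors with a guide against luciferase. Vectors were given on day 2. Overexpression cultures were harvested on days 4 and 6 and double knockout cultures on days 5 and 8, as sorted lineage-negative CD45+ cells positive for their vector reporters. The cultures of experiment 1 ran for 4 to 5 days, and those of experiment 2 for between 4 and 8 days. Each experiment gave 1 mRNA library and 1 library of 8 hashtags, which are DNA barcodes on antibodies that tag all cells of a culture before pooling. The labels do not tie a hashtag to a genotype, vector or day, nor say whether hashtags are separate animals. Hashtags were therefore described one by one, no condition was compared with another, and no test between hashtags or conditions was made.

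A cell copies its genome once per division, in S phase. Origins of replication are licensed in G1, when Cdc6 helps load the MCM helicase. At S-phase entry E2F factors drive transcription of cyclin E, of the helicase and polymerase machinery and of the enzymes that supply deoxynucleotides. Histone mRNA accumulates during S phase itself and mitotic genes peak later, in G2 and M. Early T-cell progenitors expand strongly under Notch and IL-7 signals before they rearrange their T-cell receptor genes, and many of them are in cycle at any time.

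After cells with under 500 genes or at least 10% mitochondrial UMIs were left out, 8797 of 9332 cells in experiment 1 and 8335 of 10214 in experiment 2 had a called hashtag. A UMI marks 1 captured RNA molecule. The called cells held 221139979 and 232564152 UMIs, with 691 to 1291 and 855 to 1312 cells per hashtag and medians of 24753 and 26338 UMIs per cell. Levels are UMIs summed over the cells of a hashtag and scaled to a total of 1e+06 (CPM). Each UMI stands for 1 transcript end, so levels were not divided by gene length. Each member had at least 274 UMIs in every hashtag of experiment 1 and 338 in every hashtag of experiment 2. Intervals are exact, at 95%, and hold counting error alone. Cells are not replicates. The libraries shared 39 cell barcodes, by sequence alone. Against the labelled early progenitor identity, none of the 7 progenitor and 10 T-lineage markers was at 0 in either experiment, and Kit ranged over hashtags from 54.3 to 89.0 CPM and from 26.4 to 56.5 CPM. Markers of other cell types were present too, with granulocyte genes at 223 to 1527 CPM and 198 to 12297 CPM and stromal genes at 0.893 to 42.5 CPM and 103 to 497 CPM. Runx1 itself ranged from 38.2 to 241 CPM and from 33.7 to 121 CPM, and Runx3 from 115 to 181 CPM and from 74.7 to 145 CPM. These counts do not separate vector transcripts from those of the mouse gene, and no condition was read from them.

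Together the 40 genes made up 3502 to 4938 of every 1e+06 UMIs in any hashtag of either experiment. In experiment 1 their summed level was 4672, 4621, 4932, 4938, 4809.8, 4832, 4113 and 4304 CPM in hashtags 1 to 8. Hashtags 7 and 8 were the lowest and the other 6 lay between 4621 and 4938 CPM. The highest was 1.2 times the lowest (95% interval 1.19 to 1.21). The corresponding levels in experiment 2 were 4082, 4069, 4076, 4107, 3815, 3502, 4129 and 3736 CPM. There hashtag 6 was lowest, hashtags 5 and 8 came next, and the other 5 lay within 4069 to 4129 CPM, with a highest-to-lowest ratio of 1.18 (1.17 to 1.19). Hashtag 7 of experiment 1 and hashtag 6 of experiment 2 were also the lowest under each other cell filter, hashtag call and scaling run. The order of the other hashtags moved in both experiments. Hashtag 6 of experiment 1 was highest with TMM (4877 CPM, hashtag 4 at 4800 CPM) and with DESeq2 size factors (4663 and 4610 CPM). Without mt-, Rps and Rpl genes in the total, hashtag 5 was highest there (7190 CPM, hashtag 4 at 7158 CPM). By plain CPM the intervals of hashtags 1 to 3 of experiment 2 overlapped. With HTODemux calls, however, hashtag 2 of experiment 2 stood at 3833 CPM against 4121 and 4077 CPM in hashtags 1 and 3. With DESeq2 size factors hashtag 4 (3753 CPM) came near hashtag 5 (3743 CPM), and with TMM it was at 3867 against 3812 CPM. With 1 culture of unknown condition per hashtag there is no replicate spread to set these ratios against. In bulk sums of this kind, fewer cells in S phase and fewer of these transcripts per S-phase cell cannot be told apart. Other readouts moved along the same hashtags. Hashtag 7 of experiment 1 had the fewest UMIs per cell (median 18057.5) and the lowest G2/M level (6729 CPM). With hashtag 8 it had the highest summed levels of the 7 progenitor markers (489.8 and 484 CPM, others 301 to 440.5) and of the 4 erythroid markers (3285 and 3242 CPM, others 571 to 2514). Kit, itself a progenitor marker, went the other way and was lowest in hashtags 7 and 8, at 58.2 and 54.3 CPM (others 59.5 to 89.0). Hashtag 6 of experiment 2 had the most UMIs of the 9 granulocyte markers (12297 CPM) and of the 5 monocyte markers (529.7 CPM, lowest 53.2), and the fewest of the 8 innate lymphoid or NK markers (327 CPM, highest 2287). None of these marker genes was at 0 in either experiment. Runx1, the gene that the vectors raise or target, was also uneven. It was at 241 and 210.0 CPM in hashtags 7 and 8 of experiment 1 and at 38.2 to 96.5 CPM in the other 6. In experiment 2 it was highest in hashtags 8 and 6, at 121 and 102 CPM, and at 33.7 to 86.7 CPM in the rest. Their part in the result was not tested.

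**Figure D1:**
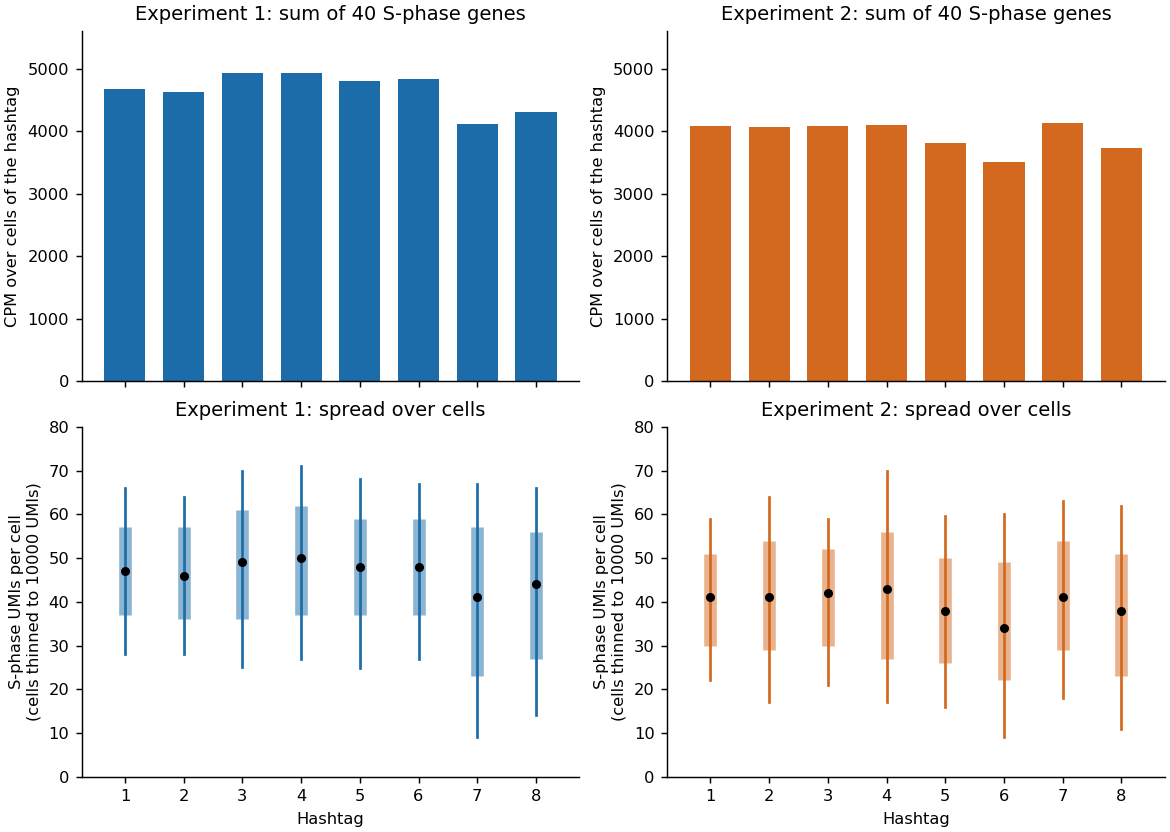
Summed level of the 40 S-phase genes in each hashtag (top, CPM, bars from 0) and UMIs of these genes per cell after every cell was thinned to 10000 UMIs (bottom, dot at the median, box from the 25th to the 75th and line from the 10th to the 90th percentile). Hashtags 7 and 8 of experiment 1 and hashtag 6 of experiment 2 are lowest in the top panels, and their lines reach lowest in the bottom panels.

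Most single members were less even over hashtags than the sum in both experiments, but few varied widely. The highest hashtag was at least 1.5 times the lowest for 1 of the 40 in each experiment, Rfc2 in experiment 1 and Dscc1 in experiment 2. Among the genes of mean level 10 CPM or more that share was 21.4% in experiment 1 and 30.3% in experiment 2. The median highest-to-lowest ratio was 1.23 for the members against 1.28 for all genes in experiment 1, and 1.27 against 1.34 in experiment 2. Genes of high level have less counting error, but over genes within the members' own range of levels the medians were still 1.26 and 1.32. Averaging over cells in place of summing UMIs gave 8 members past 1.5-fold in experiment 1 (Cdc45, Cdc6, Dscc1, Exo1, Nasp, Rad51ap1, Rfc2 and Tyms), all with hashtag 7 lowest. Thinned cells gave 4 in experiment 2 (Prim1, Rad51ap1, Tyms and Wdr76). The share of all genes was worked out for summed UMIs only, so these other counts have no background to be read against. Without hashtag 7 the count of experiment 1 was 0, as was that of experiment 2 without hashtag 6. Hashtag 7 was the lowest of the 8 for 28 of the 40 members of experiment 1, where 25.4% of all genes had their lowest level. Hashtag 4 was highest for 12 (all genes 20.1%), hashtag 3 for 7 (all genes 16.5%) and hashtag 6 for 7 (all genes 4.66%). In experiment 2, hashtag 6 was lowest for 21 members (all genes 21.6%) and hashtag 8 for 8 (all genes 8.29%). Hashtags 2 and 4 were highest for 9 each (all genes 14.4% and 26.3%), and hashtags 1 and 7 for 8 each (all genes 14.6% and 12.4%). Hashtag 6 was above the median of the 8 for 0 of the 40 members and for 40.7% of all genes.

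**Figure D2:**
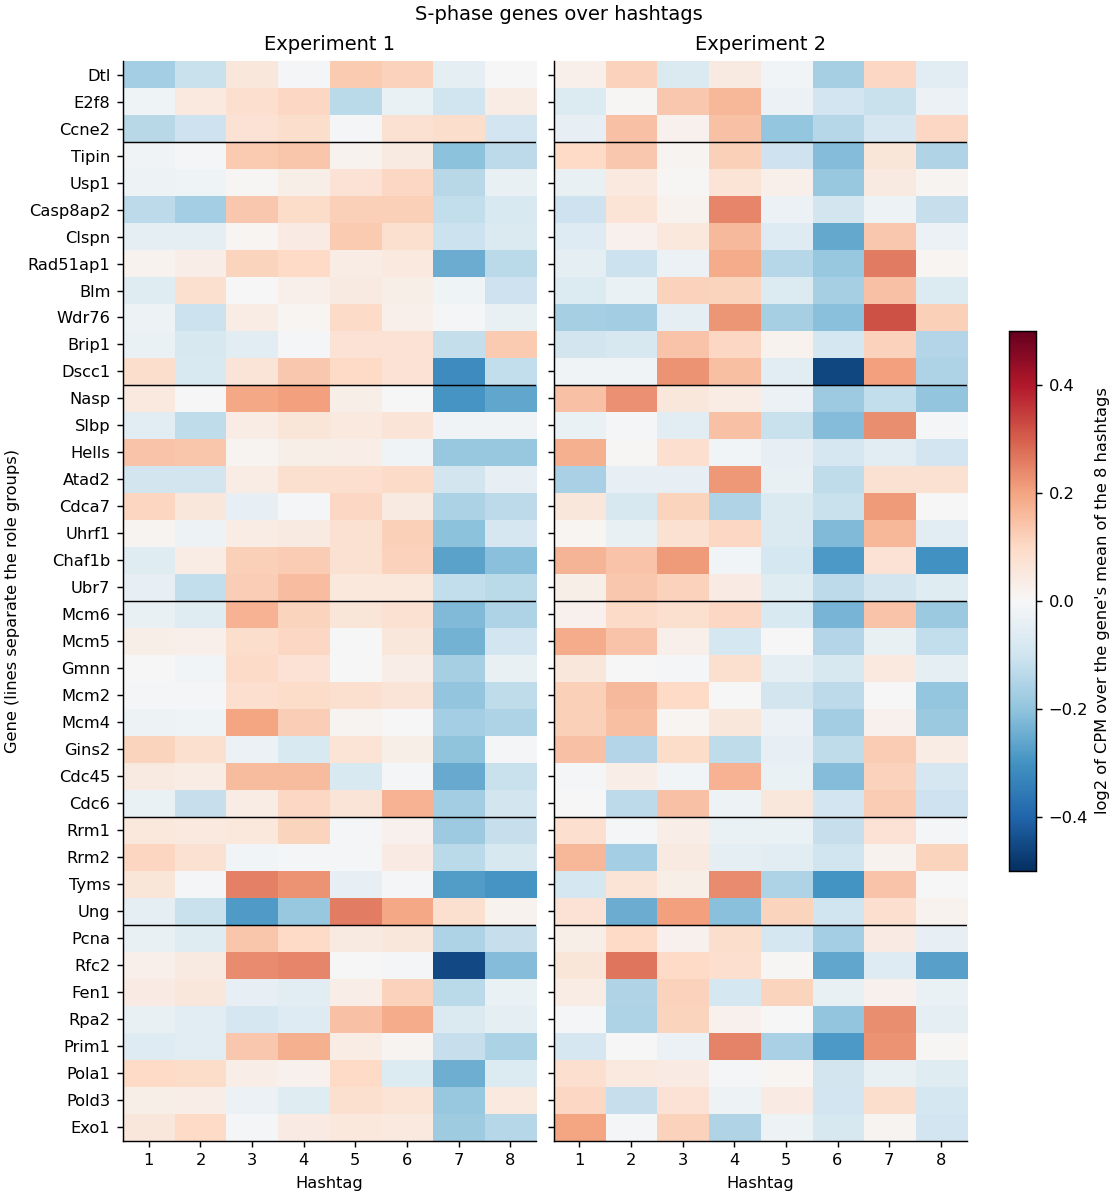
Level of each S-phase gene in each hashtag as the log2 of CPM over the gene's own mean of the 8 hashtags, with genes in rows by role (black lines) and hashtags in columns. The column of hashtag 7 in experiment 1 is blue for most genes, as is that of hashtag 6 in experiment 2, and Rfc2 and Dscc1 hold the darkest cells.

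The 40 genes lie on 17 chromosomes, with at most 6 on one, so they do not share a locus. The sequence at their start sites is a feature that the choice by symbol did not use. Promoters from RefSeq (GRCm38.p6, 300 bases from 250 before to 50 after a start site) were matched for 30 of the 40 members, and the other 10 are not reported. Each was searched on both strands for the E2F-type words TTTCCCGC, TTTGGCGC, TTTGCCGC and TTTCGCGC, which can overlap one another on opposite strands. At least 1 word stood in the promoters of 12 of the 30 members (40%), of 11 of 30 other replication genes (36.7%) and of 3 of 43 G2/M genes (6.98%). A word was found for 2.61% of all 27025 genes whose promoters were searched. Of the genes of mean level 10 CPM or more in experiment 1 the share was 5.62%. Promoters on 1 autosome, which holds no member, were left out of all these counts. CCAAT, the box bound by NF-Y, stood in 70% of members, 76.7% of G2/M genes and 41.1% of all genes. A match describes letters in this window, not a bound site. The promoters of Mcm5 (chr8:75109259-75109558, plus strand), Mcm6 (chr1:128359656-128359955, minus strand) and Dtl (chr1:191575495-191575794, minus strand) show the word in capitals, in Mcm5 and Mcm6 as overlapping words on both strands. That of Rrm2 (chr12:24708004-24708303, plus strand) is shown as one without a match.
Mcm5: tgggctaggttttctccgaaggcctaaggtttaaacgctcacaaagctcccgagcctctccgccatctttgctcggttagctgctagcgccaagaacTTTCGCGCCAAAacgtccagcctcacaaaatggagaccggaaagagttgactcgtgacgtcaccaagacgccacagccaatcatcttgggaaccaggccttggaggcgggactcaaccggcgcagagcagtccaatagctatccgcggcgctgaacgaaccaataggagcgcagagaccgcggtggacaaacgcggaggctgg
Mcm6: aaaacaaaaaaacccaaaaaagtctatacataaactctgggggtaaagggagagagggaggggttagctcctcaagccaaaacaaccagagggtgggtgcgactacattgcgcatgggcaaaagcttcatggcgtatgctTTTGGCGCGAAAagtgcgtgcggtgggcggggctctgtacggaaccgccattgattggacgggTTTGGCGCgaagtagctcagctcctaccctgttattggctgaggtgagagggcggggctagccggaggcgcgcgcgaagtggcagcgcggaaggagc
Dtl: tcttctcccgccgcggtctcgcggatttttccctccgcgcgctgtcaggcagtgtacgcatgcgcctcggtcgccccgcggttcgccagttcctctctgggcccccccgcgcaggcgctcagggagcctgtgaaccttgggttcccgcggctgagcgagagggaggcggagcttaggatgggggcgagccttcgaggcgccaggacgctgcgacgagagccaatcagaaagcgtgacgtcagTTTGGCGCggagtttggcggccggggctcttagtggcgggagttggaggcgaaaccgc
Rrm2: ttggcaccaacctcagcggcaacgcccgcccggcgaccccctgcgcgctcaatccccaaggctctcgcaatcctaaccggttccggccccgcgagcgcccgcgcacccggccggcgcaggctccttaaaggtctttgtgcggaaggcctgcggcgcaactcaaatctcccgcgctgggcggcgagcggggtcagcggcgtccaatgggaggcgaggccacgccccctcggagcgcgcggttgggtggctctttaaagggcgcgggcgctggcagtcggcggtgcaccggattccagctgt

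Licensing and firing factors, 8 members, gave 937 to 1171 CPM in experiment 1 and 845 to 999 CPM in experiment 2 as a group. Mcm6, a subunit of the replicative helicase, was one of the 5 most abundant members. Its levels in hashtags 1 to 8 of experiment 1 were 283, 278, 327, 314, 303, 306, 249 and 261 CPM. Hashtag 3 was highest and hashtag 7 lowest, with a ratio of 1.31 (95% interval 1.27 to 1.36). In experiment 2 they were 268, 282, 279, 283, 251, 225, 292 and 232 CPM, a ratio of 1.30 (95% interval 1.253 to 1.34) between hashtags 7 and 6. Hashtag 7 was thus lowest in experiment 1 and highest in experiment 2, but no label ties the cultures that share a hashtag number. The other helicase subunits of the list were at lower levels and had the same lowest hashtag in experiment 1, with Mcm5 at 159 to 202 CPM (median 191), Mcm2 at 127 to 155 CPM (median 148) and Mcm4 at 103 to 133 CPM (median 115). Their ranges in experiment 2 were 142 to 179 CPM (median 155), 89.3 to 114 CPM (median 102) and 76.4 to 96.4 CPM (median 87.8). Mcm5 was there lowest in hashtag 6, and Mcm2 and Mcm4 in hashtag 8. Gmnn encodes geminin, which blocks a new round of licensing by holding Cdt1. It stood at 186, 185, 199.8, 197, 187, 191, 167 and 182 CPM in experiment 1, a ratio of 1.2 (95% interval 1.15 to 1.249). In experiment 2 it was the most even of the 40 members, at 197, 189, 188, 199.9, 184, 179, 196 and 183 CPM with a ratio of 1.12 (95% interval 1.07 to 1.16). Cdc6, which loads the helicase, was far less abundant, at 35.9 to 45.8 CPM (median 40.5) and 28.7 to 34.7 CPM (median 31.1). Cdc45 and Gins2, which join the helicase to activate it, ranged in experiment 1 over 40 to 53.1 CPM (median 48.1) and 55.4 to 68.8 CPM (median 64.1), and in experiment 2 over 40 to 52.5 CPM (median 46.1) and 58.6 to 71.6 CPM (median 64.7).

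Among the 8 genes of polymerases, clamp and flap enzymes, Rfc2 varied most and the rest stayed within 1.5-fold. Rfc2 encodes a subunit of the clamp loader. Its levels were 182, 184, 210.3, 212, 179, 178, 131 and 154 CPM in hashtags 1 to 8 of experiment 1, highest in hashtags 3 and 4 and lowest in 7, with a ratio of 1.62 (95% interval 1.55 to 1.69). This was the largest ratio of any member there, and it exceeded the ratio of 84.5% of the genes of mean level 10 CPM or more. In experiment 2 it stood at 187, 215, 191, 189.6, 179.7, 149.5, 171 and 148 CPM, and hashtag 2 exceeded hashtag 8 by a ratio of 1.45 (95% interval 1.39 to 1.52). Pcna, the sliding clamp, had 169 to 207 CPM (median 188) in experiment 1 and 116 to 139 CPM (median 132) in experiment 2, lowest in hashtags 7 and 6. Prim1, the catalytic primase subunit, was among the 4 most uneven members of experiment 2, with 60.4, 63.8, 62.6, 75.9, 57.1, 52.4, 74.7 and 64.2 CPM. Hashtags 4 and 7 were high, hashtag 6 was low, and the ratio was 1.45 (95% interval 1.35 to 1.55). Pola1, which extends the primers, was more even, and its levels of 38.1, 37.2, 37.0, 35.8, 36.2, 33.7, 35.0 and 34.5 CPM in the same cells had a ratio of 1.13 (95% interval 1.04 to 1.23). Pold3, an accessory subunit of polymerase delta, was close to even in both (48.3 to 58.2 CPM (median 56.3), then 43.0 to 50.2 CPM (median 46.9)). Rpa2, which coats single strands, was highest in hashtag 6 of experiment 1 and in hashtag 7 of experiment 2, over 112 to 135 CPM (median 115) and 107 to 144 CPM (median 122). Fen1, which cuts the flaps of lagging-strand fragments, ranged over 110.2 to 131 CPM (median 121) and 89.2 to 107 CPM (median 98.5), and the exonuclease Exo1 over 33.4 to 40.6 CPM (median 39.0) and 26.4 to 33.6 CPM (median 28.9).

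The group listed as nucleotide supply has 4 genes, and counts Ung, which removes uracil from DNA and makes no nucleotides, among them. These genes did not share 1 pattern over hashtags. Rrm1 encodes the large subunit of ribonucleotide reductase, which makes deoxynucleotides. It stood at 215, 214, 215, 224, 206, 210.1, 183 and 191 CPM in experiment 1, with hashtag 7 lowest and a ratio of 1.23 (95% interval 1.18 to 1.27). In experiment 2 its levels were 167, 156, 161, 154, 153, 145, 165 and 157 CPM, the third most even member there, with a ratio of 1.15 (95% interval 1.1 to 1.2). Rrm2, the small subunit, had 191, 187, 176, 177, 177, 183, 162 and 168 CPM in experiment 1 and 170.1, 135, 156, 146, 146, 142, 153 and 164 CPM in experiment 2, where hashtag 1 was highest and hashtag 2 lowest. Thus the subunits had different lowest hashtags in experiment 2. Tyms, thymidylate synthase, was more uneven, at 148, 141, 168, 165, 137, 141, 117 and 115 CPM in experiment 1. Hashtags 3 and 4 were high and 7 and 8 low, at a ratio of 1.46 (95% interval 1.38 to 1.54). It was again uneven in experiment 2, at 154, 172, 167, 194, 148, 133, 181 and 164 CPM, hashtag 4 over hashtag 6 by 1.45 (95% interval 1.39 to 1.51). Ung, the glycosylase that removes uracil from DNA, had another order. Its levels of 67.5, 64.5, 57.3, 61.1, 83.1, 79.8, 73.8 and 70.5 CPM in experiment 1 were highest in hashtags 5 and 6 and lowest in 3 and 4, with a ratio of 1.45 (95% interval 1.36 to 1.55). In experiment 2 hashtags 2 and 4 were lowest, at 60.9, 48.7, 66.7, 50.2, 62.6, 54.0, 61.5 and 58.7 CPM with a ratio of 1.37 (95% interval 1.28 to 1.46).

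Checkpoint and repair members, 9 genes, spanned a wide range of levels. Tipin, part of the complex that steadies replication forks, was the most abundant of them, at 235, 236, 259.9, 262, 240.3, 245, 206 and 217 CPM in experiment 1 with a ratio of 1.27 (95% interval 1.22 to 1.32). Its levels in experiment 2 were 233, 238, 219, 236, 202, 187, 226 and 196 CPM, with hashtag 6 lowest and a ratio of 1.27 (95% interval 1.23 to 1.32). Dscc1, which helps load the clamp during sister chromatid cohesion, was among the rarest, and its 19.2, 19.2, 22.7, 21.6, 18.7, 14.2, 22.4 and 17.5 CPM in experiment 2 gave the largest ratio of that experiment, 1.60 (95% interval 1.42 to 1.81) between hashtags 3 and 6. In experiment 1 Dscc1 ranged over 16.5 to 22.6 CPM (median 21.6). Blm, a helicase that resolves recombination intermediates, was the most even member of experiment 1, at 37.2, 41.1, 38.9, 39.5, 40.1, 39.6, 38.3 and 36.1 CPM and a ratio of 1.14 (95% interval 1.03 to 1.26), and ranged over 23.2 to 28.8 CPM (median 25.1) in experiment 2. Clspn, the adaptor that lets ATR activate Chk1, had 80.5 to 95.1 CPM (median 85.7) and 57.9 to 77.5 CPM (median 69.0). Usp1, the enzyme that removes ubiquitin from the clamp, had 131 to 154 CPM (median 143) and 103 to 123 CPM (median 119). For Rad51ap1 the ranges were 48.5 to 62.3 CPM (median 59.0) and 46.8 to 63.8 CPM (median 52.0). Wdr76 had 34.6 to 39.8 CPM (median 37.3) and 28.0 to 40.5 CPM (median 30.1), and Casp8ap2, a factor of histone mRNA processing, 99.6 to 123 CPM (median 113) and 72.7 to 93.3 CPM (median 77.4). Brip1, a helicase that binds Brca1, was low throughout, at 21.4 to 25.4 CPM (median 22.8) and 15.7 to 19.1 CPM (median 17.0).

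Chromatin members, 8 genes, contributed 27.0% of the summed level in experiment 1 and 26.1% in experiment 2, the largest share of any of the 6 role groups. Nasp, a histone chaperone, had the highest level of all 40 members. In experiment 1 it stood at 389, 376, 429.7, 434, 383, 376, 307 and 314 CPM, high in hashtags 3 and 4 and low in 7 and 8, with a ratio of 1.41 (95% interval 1.37 to 1.46). In experiment 2 it stood at 360.2, 381, 338, 334, 319, 287, 299 and 283 CPM, with hashtag 2 highest and hashtag 8 lowest and a ratio of 1.34 (95% interval 1.30 to 1.39). Slbp binds the stem-loop of histone mRNA and was steadier, at 164, 157, 175, 178, 177, 179, 169 and 169 CPM in experiment 1. That was a ratio of 1.14 (95% interval 1.1 to 1.18), the third smallest there, with hashtag 2 lowest. In experiment 2 it ranged over 137 to 187 CPM (median 157). Atad2, a bromodomain ATPase, was also near even in experiment 1, at 145, 145, 159, 164, 164, 165, 145 and 150.2 CPM and a ratio of 1.14 (95% interval 1.09 to 1.19). Its range in experiment 2 was 102 to 133 CPM (median 111). Hells, a chromatin remodeller, and Cdca7, its partner, ranged over 142 to 179 CPM (median 164) and 133 to 160.3 CPM (median 151) in experiment 1. In experiment 2 they ranged over 117 to 141 CPM (median 122) and 114 to 146 CPM (median 123). Uhrf1, which guides maintenance DNA methylation to replicated DNA, had 121 to 152 CPM (median 142) and 78.5 to 103 CPM (median 90.6). Chaf1b, a subunit of chromatin assembly factor, had 51.1 to 67.3 CPM (median 64.1) and 47.3 to 67.7 CPM (median 59.6), lowest in hashtags 7 and 8 in turn. Ubr7 had 36.2 to 44.2 CPM (median 39.9) and 24.7 to 29.7 CPM (median 26.7).

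The 3 cell-cycle regulators were few in UMIs and added 3.10% and 2.60% of the sum. Ccne2, cyclin E2, which drives entry into S phase, was the rarest member of both experiments, over 18.6 to 21.8 CPM (median 21.0) and 13.3 to 16.8 CPM (median 15.1). In experiment 1 it was highest in hashtag 7, the hashtag in which 28 other members were lowest, at a ratio to hashtag 1 of 1.17 (95% interval 1.04 to 1.31). E2f8, a repressor of E2F targets, ranged over 22.8 to 26.9 CPM (median 25.2) and 15.6 to 18.9 CPM (median 16.6). Dtl, the receptor through which a ubiquitin ligase destroys Cdt1, had 89.5 to 110.0 CPM (median 100.4) and 63.0 to 76.5 CPM (median 70.9), and hashtags 1 and 6 were lowest.

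Nearly every cell held RNA of these genes, and the level varied widely between cells of a hashtag. Cells were thinned to 10000 UMIs each, which left out 573 shallower cells in experiment 1 and 589 in experiment 2. In the 8224 cells of experiment 1 the median was 47 UMIs of S-phase genes per cell, with the 10th percentile at 24 and the 90th at 68. In the 7746 cells of experiment 2 the median was 40, from 16 to 62. Only 1 and 7 cells had none. Free RNA can add UMIs to any cell, and its part was not tested. The hashtags with a low sum were lower in the middle of this range as well as at its lower end. Medians were 41 and 44 UMIs in hashtags 7 and 8 of experiment 1 and 46 to 50 in the others. Cells with 50 or more UMIs made up 35.8% and 36.6% there, against 42.6% to 50.2%. In experiment 2 hashtag 6 had the lowest median, 34 UMIs (others 38 to 43). Its share of cells with 50 or more was also the smallest, 23.8% (others 25.6% to 37.3%). Cells under 20 UMIs, a limit set after the values were seen, made up 2.91% to 6.02% of cells in hashtags 1 to 6 of experiment 1. In hashtag 7 they made up 20.4% (95% interval 17.9 to 23.0%) and in hashtag 8 15% (95% interval 12.3 to 18.1%). The 90th percentile of hashtag 7 was nevertheless 67 UMIs, within the range of 64 to 71 of the other hashtags. The same share in experiment 2 ran from 7.49% in hashtag 1 to 21.3% (95% interval 18.6 to 24.2%) in hashtag 6, with 19.2% (95% interval 16.5 to 22.1%) in hashtag 8. The limit cuts a continuous range and marks no cell type, and 535 and 877 cells lay between 15 and 24 UMIs. Shallower cells left out numbered 212 in hashtag 7 of experiment 1 and 42 to 66 in each of its other hashtags. In experiment 2 they numbered 177 in hashtag 4 and 34 to 80 in each of the others. After thinning, hashtag 4 was the highest of experiment 2 at 4287 CPM, where summed UMIs of all its cells gave 4107 CPM.

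Across cells the members varied together. The values here are Spearman rank correlations over the thinned cells, given as a description without a p, since cells share a library. Sparse counts keep them small, and every value shares the fixed total of 10000 UMIs. Each member was set against the sum of the other 39. These correlations ranged from 0.156 for Ubr7 to 0.491 for Rrm2 in experiment 1 (median 0.292). In experiment 2 they ranged from 0.139 for Ubr7 to 0.476 for Mcm6 (median 0.331). Over all 6872 genes abundant enough to enter, the median correlation with the S-phase sum was 0.00028 in experiment 1 and 0.0038 in experiment 2. All 780 pairs of members had a value above 0, with medians of 0.102 and 0.122. Pairs of other genes were not worked out, so that count of pairs has no background to be read against. The strongest pairs were Rrm2 with Clspn in experiment 1 (0.311) and Tyms with Rrm2 in experiment 2 (0.327). Members of 1 role were hardly closer to each other than to the rest, with medians of 0.106 against 0.102 and of 0.128 against 0.121. The sum followed a list of 36 other replication genes, among them Dut, Lig1 and Mcm3, at 0.740 and 0.792. With 67 histone genes it reached 0.368 and 0.351, with 49 G2/M genes -0.115 and -0.0780, and with a cell's total UMIs before thinning 0.193 and 0.0816.

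How steeply a member followed the rest differed widely. For each member, cells were put into 10 equal bins by the sum of the other members. The members had already been seen to vary together, so only the steepness of the rise over the bins is described. Ccne2 was steepest, at 2.55 CPM in the bottom bin and 45.1 CPM in the top bin of experiment 1, a ratio of 17.7 (95% interval 11.4 to 28.9). In experiment 2 that ratio was 29.1 (95% interval 16.5 to 56.9). Cdc6 had 13.9 and 16.1, Clspn 11.3 and 22.2, and Ung 9.46 and 18.4. Rfc2 was flattest, at 108 CPM in the bottom and 218 CPM in the top bin of experiment 1, with a ratio of 2.02 (95% interval 1.86 to 2.19), against 2.66 (95% interval 2.43 to 2.91) in experiment 2. So the member that varied most between hashtags of experiment 1 varied least between cells of low and high S-phase level. The medians over all 40 members were 4.03 and 6.4.

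Among the 6736 genes outside the member, replication, histone and G2/M lists, those most like the S-phase sum across cells were chosen by the lower of their correlations in the experiments. Pclaf, which binds the Pcna clamp, came first at 0.377 and 0.427. Siva1 (0.358 and 0.424), the chaperones Hsp90aa1 (0.352 and 0.397) and Hspd1 (0.308 and 0.333), and Fbxo5 (0.339 and 0.332), an inhibitor of the anaphase-promoting complex, came next. Hat1, a histone acetyltransferase, had 0.301 and 0.345, the histone chaperone Nap1l1 0.284 and 0.293, the nucleolar genes Nolc1 0.298 and 0.294 and Ncl 0.292 and 0.311, and Fam111a 0.274 and 0.290. The 100 most similar of all 6872 genes held 32 of the 40 members, each set against a sum without itself, 17 of 35 other replication genes, 5 of 16 histone genes and 0 of 45 G2/M genes that were abundant enough to enter. The other 46 were in none of these lists.

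Ordering the cells by G2/M level, which the members do not enter, separated members by the bins in which they were high. The bins rank cells by G2/M level and are not points in time. Over 10 equal bins of cells from low to high G2/M level, the S-phase sum of experiment 1 was 2718 CPM in bin 1, 5531 CPM in bin 4, its highest, and 3584 CPM in bin 10. Experiment 2 gave 1858, 4946 and 3037 CPM, with the same highest bin. Histone genes were instead highest in bin 10, at 1849.9 and 2243 CPM, and at 346 and 264 CPM in bin 1. Of the 40 members, 31 in experiment 1 and 32 in experiment 2 were highest in bins 2 to 5. Of all genes of mean level 10 CPM or more, 23.0% and 23.9% were. Another 5 were highest in bins 6 to 8 in each experiment, 4 and 3 were highest in bins 9 or 10, and 0 in bin 1. The shares of all genes were 23.1% and 20.8% for bins 6 to 8, 27.1% and 29.2% for bins 9 and 10, and 26.8% and 26.1% for bin 1. Median depth also differed between the bins, from 15425 UMIs per cell in bin 1 to 30714 in bin 10 of experiment 1 before thinning. Its part in the pattern was not tested beyond that thinning.

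Ung had the sharpest profile of the members on this order. It was at 68.7 CPM in bin 1, 140.1 CPM in bin 3 and 3.53 CPM in bin 10 of experiment 1, and at 48.3, 133 and 2.84 CPM in experiment 2. Its rank correlation with the G2/M level was -0.411 and -0.399, the lowest of any member, and the next were Mcm4 at -0.157 in experiment 1 and Mcm6 at -0.169 in experiment 2. Cdc6 and Ccne2 also were low at high G2/M level. Cdc6 had 63.7 CPM in bin 4 and 9.73 CPM in bin 10 of experiment 1, and Ccne2 had 35.6 and 4.74 CPM. The helicase subunit Mcm6 kept more of its level, with 355 CPM in bin 2 and 206 CPM in bin 10. Rrm1 and Tyms were instead high at high G2/M level. Rrm1 was at 83.5 CPM in bin 1 and 243 CPM in bin 9 of experiment 1, and Tyms at 42.3 CPM in bin 1 and 171 CPM in bin 10. Their correlations with the G2/M level were 0.240 and 0.214 in experiment 1 and 0.252 and 0.279 in experiment 2, the highest of the 40. Rrm2 was highest in bin 4 of experiment 1 (225 CPM) and bin 5 of experiment 2 (200.1 CPM), so the subunits of ribonucleotide reductase were highest in different bins. E2f8 stayed nearly level from bin 4 (27.5 CPM) to bin 10 (26.8 CPM) in experiment 1. In all, 22 members had a negative and 18 a positive correlation with G2/M level in each experiment, where 39.8% and 40.2% of all genes were negative. By role, the group listed as nucleotide supply had 3 of 4 positive in each experiment, all but Ung, which removes uracil from DNA. Licensing and firing had 6 of 8 negative and chromatin 6 of 8 negative in each experiment. With histone level 36 of 40 were positive in each, as were 49.6% and 51.7% of all genes.

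**Figure D3:**
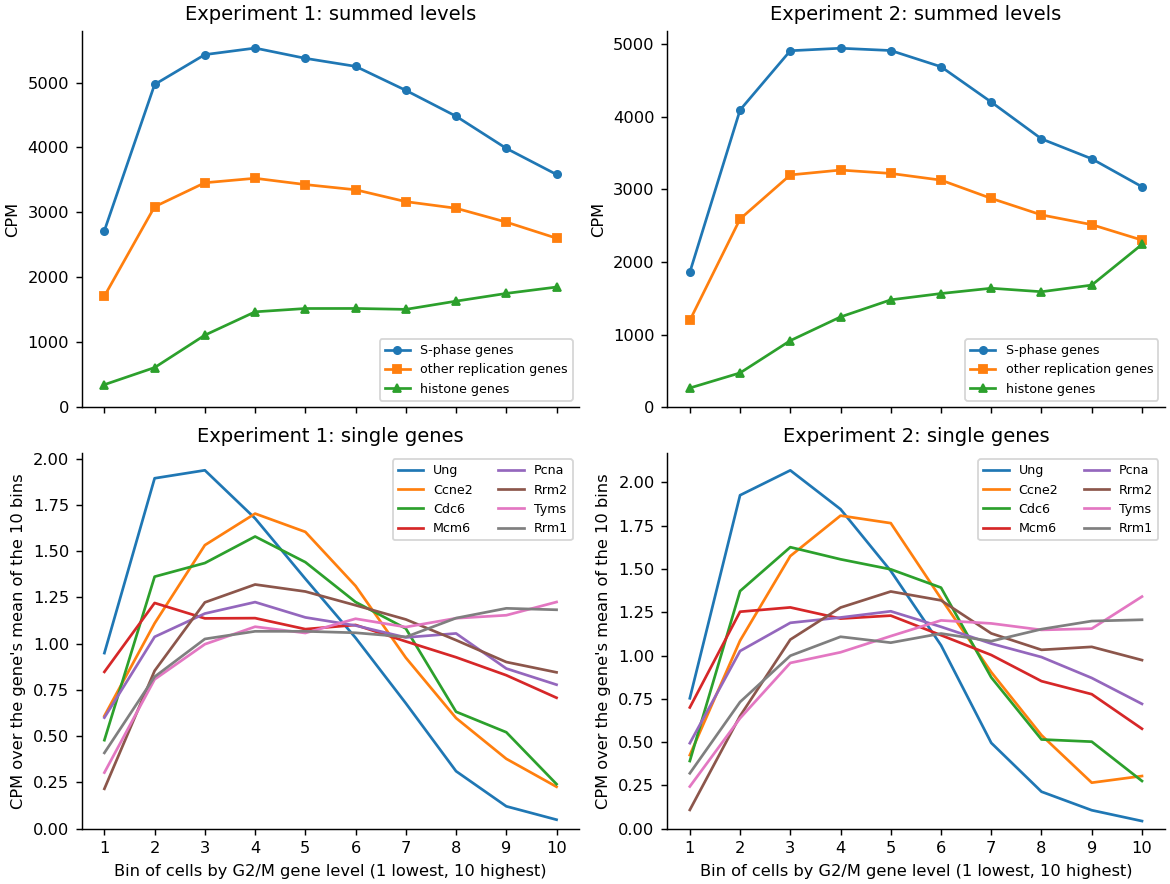
Top, summed CPM of S-phase, other replication and histone genes in 10 equal bins of cells ordered by G2/M gene level, from lowest (1) to highest (10). Bottom, CPM of 8 members in each bin over the gene's mean of the 10 bins. The S-phase sum is highest in bin 4, Ung is highest in bin 3 and lowest in bin 10, and Rrm1 and Tyms are highest in bins 9 and 10.

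S-phase level was also compared between cells grouped by thinned UMIs of Kit, the receptor that marks early progenitors, and Il2ra (CD25), which appears as cells enter the T lineage. Cells with Kit and no Il2ra UMI had 4409 CPM in experiment 1, cells with both 4758 CPM, cells with Il2ra and no Kit 4724 CPM and cells with neither 4526 CPM. In experiment 2 the values in that order were 3880.1, 4129, 4273 and 3783 CPM. Within single hashtags, cells with both were above cells with Kit and no Il2ra in 8 of 8 hashtags of each experiment. Cells with Il2ra and no Kit were above cells with neither in 7 of 8 hashtags of experiment 1 and 8 of 8 of experiment 2. The exception was hashtag 8 of experiment 1, at 4105 against 4284 CPM. A UMI can come from free RNA and its lack from low depth, so these classes are ranges rather than cell types. Hashtags 7 and 8 remained the lowest of experiment 1 among cells with an Il2ra UMI, at 4114 and 4165 CPM against 4779 to 5124 CPM in the others. Hashtag 6 remained the lowest of experiment 2, at 3788 CPM.

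Clusters of cells, built without the member, other replication, G2/M and histone genes, differed in S-phase level more than hashtags did. Cell-cycle genes outside these lists could still enter, and Kpna2, Prc1 and Plk1 were among the leading genes of cluster 2 of experiment 1. The 12 clusters of experiment 1 are called by number and leading genes. Cluster 3 (Epcam, Rgcc and Tcrg-C2, with Il2ra and Thy1 among its 10 leading genes) was highest at 5059.9 CPM (95% interval 5038 to 5082), and cluster 7 (Pgam2, Gsn and Cd3g) had 5009 CPM (95% interval 4987 to 5031). Cluster 1 (Ccnd1, Lmo2 and Mef2c, with Cd34) had 4609 CPM (95% interval 4592 to 4627). Among clusters of at least 50 cells, cluster 5 (Sh2d1a, AA467197 and Capg) was lowest at 3479.8 CPM (95% interval 3447 to 3513). Its 771 cells included 562 of the 1198 cells of hashtag 7 and 196 of the 691 of hashtag 8. Its median was 13417 UMIs per cell. Leaving it out therefore acted mostly on these hashtags. Without cluster 5, hashtag 7 was still the lowest at 4448 CPM and hashtag 8 came next at 4600.4 CPM. The highest-to-lowest ratio was then 1.11 in place of 1.2. Within cluster 3 hashtag 7 had 4933 CPM, in a range over hashtags of 4891 to 5129 CPM, and within cluster 1 4479 CPM in a range of 4316 to 4818 CPM. Hashtag 7 was not the lowest in either, and in cluster 1 hashtag 8 was. Of the 6 clusters where hashtag 7 and another hashtag held at least 20 cells, hashtag 7 was lowest in 2. These were cluster 8, at 4408 CPM in a range of 4408 to 4646 CPM, and cluster 6, at 4118 against 4499 CPM in hashtag 8.

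The 17 clusters of experiment 2 spread further at the lower end. Cluster 3 (Pgam2, Gsn and Snap47) had 4412 CPM (95% interval 4385 to 4439) and cluster 11 (Gm4632, Akr1c12 and Sh2d1a) 4382 CPM (95% interval 4359.7 to 4404). A stromal-like cluster 12 (Col1a2, Sparc and Col1a1) had 1539 CPM (95% interval 1516 to 1563) and a granulocyte-like cluster 15 (Ltf, Camp, Lcn2 and Ngp) 1548 CPM (95% interval 1469.5 to 1631). Cluster 9 (Ccl22, Bcl2a1a and Il4i1) stood between these levels at 3103 CPM (95% interval 3070.5 to 3137), and an innate lymphoid or NK-like cluster 14 (Ncr1, Il2rb and Klrd1) at 3350.2 CPM (95% interval 3291 to 3411). A mast or basophil-like cluster 16 and a B lineage-like cluster 17 were at 3837 and 4213 CPM. Hashtag 6 held 44 of the 207 cells of cluster 12, 27 of the 87 of cluster 15 and 124 of the 530 of cluster 9. Without the stromal, granulocyte, mast and B lineage clusters it stood at 3729 CPM and was still the lowest, with a highest-to-lowest ratio of 1.15. Hashtag 6 was also the lowest within clusters 4, 9 and 11 (28, 124 and 116 of its cells), at 3728, 2226 and 4045 CPM against the next lowest of 4042, 2539 and 4322 CPM. Within cluster 13, where only hashtags 6 and 8 held at least 20 cells, hashtag 6 was higher, at 3983 against 3433 CPM. Of the 9 clusters where hashtag 6 could be set against another hashtag, it was lowest in 5, the others being cluster 7 at 3915 CPM and cluster 8 at 3394 CPM. It was not lowest in clusters 12, 13, 14 and 15. Cluster 8 (Elane, Prg2 and Ms4a3, 371 cells) was not among the clusters left out, because only 2 of its 10 leading genes were granulocyte markers. Both choices of cluster to leave out were made after the values were seen.

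**Figure D4:**
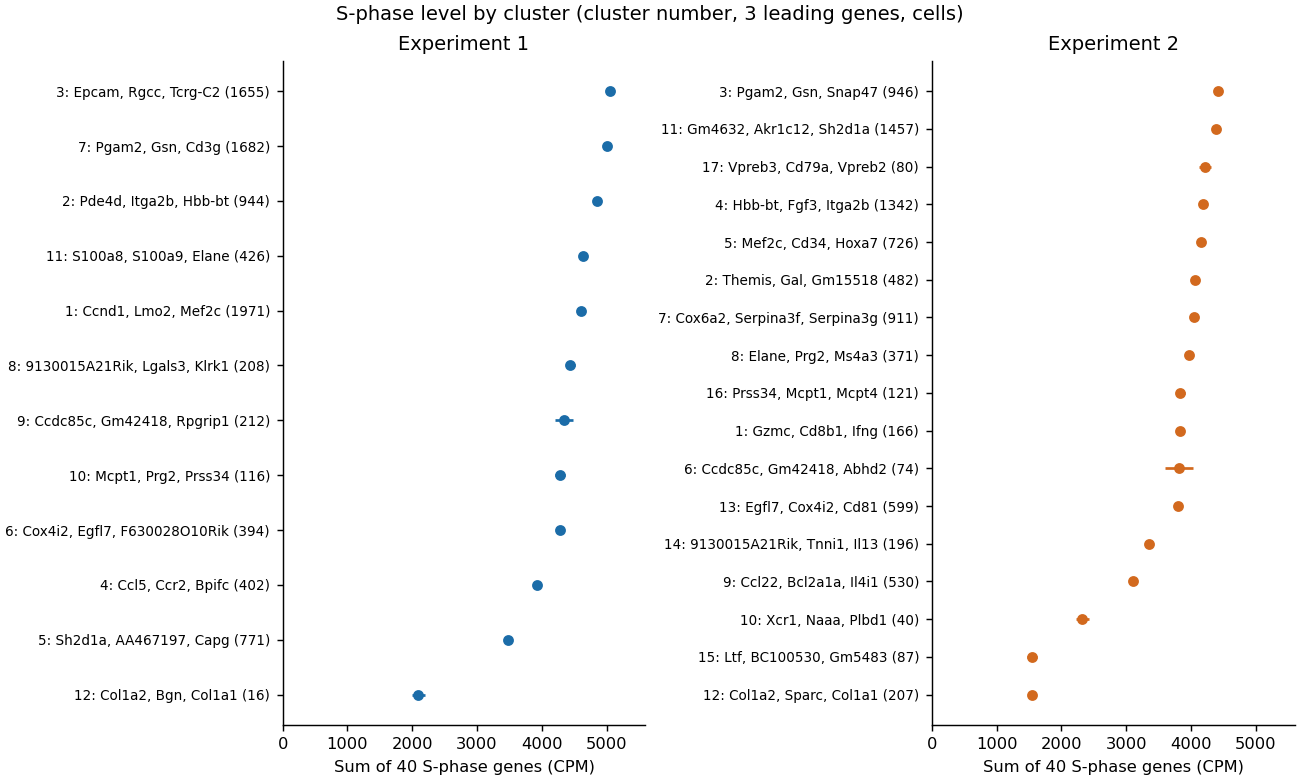
Summed level of the 40 S-phase genes in CPM (dots, with 95% intervals for counting error) by cluster, named by number, 3 leading genes and number of cells. Cluster 5 is the lowest large cluster of experiment 1, and clusters 12 and 15 (stromal-like and granulocyte-like) are lowest in experiment 2.

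S-phase genes stood lower in experiment 2, which included the longer cultures, than in experiment 1. Over all called cells the sum was 4689 CPM in experiment 1 but 3954 CPM in experiment 2, and the ratio of the second to the first was 0.843 (95% interval 0.841 to 0.846). The sums of the hashtags overlapped only where hashtag 7 of experiment 1 (4113 CPM) lay under hashtag 7 of experiment 2 (4129 CPM). The shift was not limited to these genes, as the median ratio over 7212 genes was 0.905, a log2 of -0.14. The median over the members was 0.826, and 27 of 40 were below the median of all genes. By their intervals 35 members were lower (all genes 63.4%), 2 were higher (all genes 25.8%) and 3 were neither. At least 1.2-fold lower were 20 members (all genes 36.7%), and at least 1.5-fold lower 2 (all genes 7.17%). At least 1.2-fold higher were 0 (all genes 6.5%). Pola1 was lowest, with 56.9 CPM in the first and 36.1 CPM in the second, a ratio of 0.634 (95% interval 0.617 to 0.652). Uhrf1 followed at 0.655 (95% interval 0.643 to 0.666), Blm at 0.669 (95% interval 0.647 to 0.691) and E2f8 at 0.675 (95% interval 0.647 to 0.703). Pcna, with 189 CPM in the first and 130.1 CPM in the second, had 0.690 (95% interval 0.680 to 0.70). At the other end Tyms was higher, with 145 CPM in the first and 164 CPM in the second and a ratio of 1.13 (95% interval 1.11 to 1.15), as was Rpa2 at 1.04 (95% interval 1.02 to 1.06). Gins2, Gmnn and Rfc2 were the 3 with intervals that included 1. The helicase subunits were spread out, with Mcm6 at 0.908, Mcm5 at 0.834, Mcm4 at 0.745 and Mcm2 at 0.704. So were the reductase subunits, with Rrm1 at 0.752 and Rrm2 at 0.847. Scaling with TMM or with DESeq2 size factors raised the ratio of the sum to 0.90 and 0.906 and left 31 of 40 members below 1 in place of 36, while the median of all genes became 0.966 and 0.973. Under either scaling Prim1, Dscc1, Cdc45, Chaf1b and Rfc2 lay above 1 in addition. With 1 library per experiment, culture time, library and the mix of cultures and cell types cannot be told apart.

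**Figure D5:**
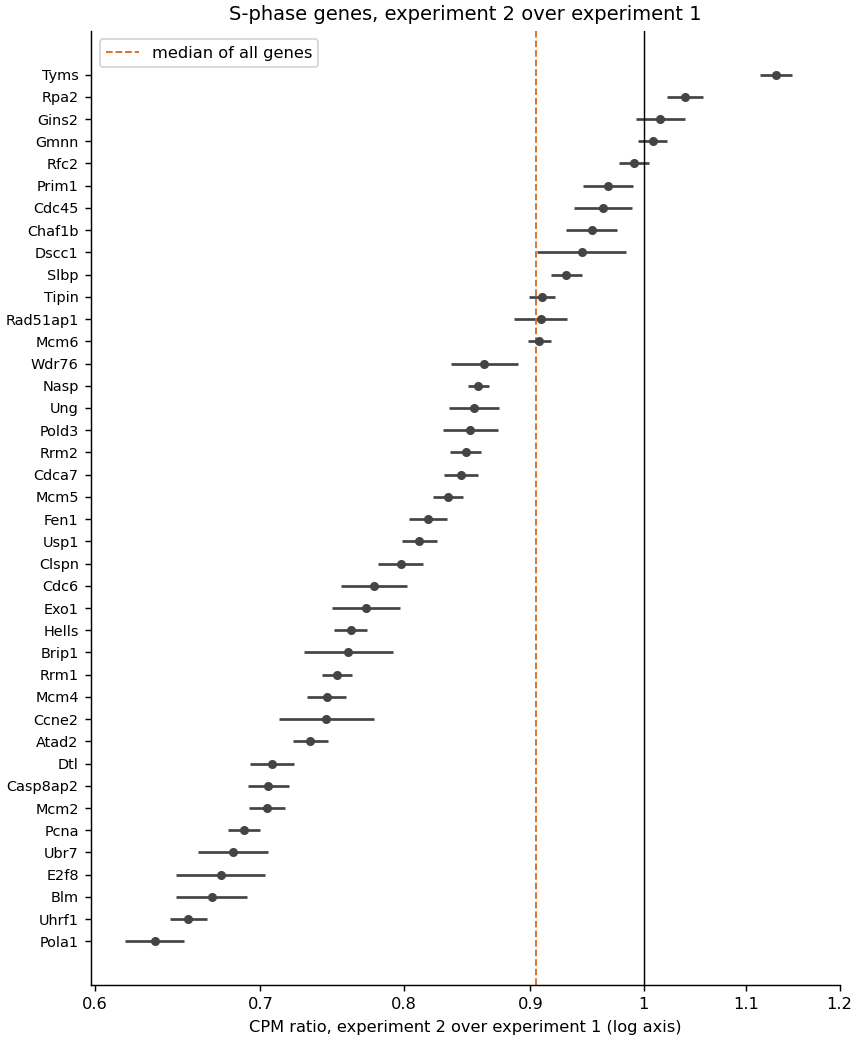
Ratio of CPM in experiment 2 to CPM in experiment 1 for each S-phase gene on a log axis, with 95% intervals for counting error, 1 library each. The solid line marks 1 and the dashed line the median of all genes (0.905). Tyms lies farthest right and Pola1 farthest left.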

How the data were processed

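The data were 2 single-cell mRNA libraries (10x Chromium version 3) with 2 hashtag libraries. The authors deposited raw counts: UMI counts per gene and cell, and hashtag counts per cell, neither normalized. Cell Ranger 3.0.0 and the mm10 (GRCm38) genome are named in the submitters' processing notes. The filter that chose the barcodes is not given in the sources used here. Cells with at least 500 genes and under 10% mt- UMIs were kept. A hashtag was called where the top tag had at least 50 counts and at least 3 times the second, which drops doublets of different hashtags. Doublets of 1 hashtag remain, and no doublet caller was run. UMIs were summed per hashtag and scaled to 1e+06 (CPM). Ratios have exact conditional binomial intervals, levels Poisson and shares Clopper-Pearson intervals (95%). No test compared hashtags or conditions, as no label ties a hashtag to a condition, and Dixon's test marked single values far from the rest. The 5 members of highest mean level and the 3 largest and 3 smallest ratios of each experiment are given for every hashtag, and the 10 most correlated genes outside the lists are named. The members came by symbol from a fixed list and not by value, but members and lists were chosen with earlier results of these data known. Cells were clustered with scanpy 1.11.5 (2000 variable genes, 30 components, 15 neighbours, Leiden resolution 0.5). Clusters were named only where 3 or more of their 10 leading genes were markers of 1 class. Alternatives used stricter filters, HTODemux (Seurat 5.3.0), TMM (edgeR 4.0.16) and DESeq2 1.42.0 size factors, means over cells, thinning, and leaving out hashtags, members or clusters. The summing and ratio steps were tested on simulated data. Promoters came from RefSeq (GRCm38.p6).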

Additional observations from a re-analysis of the deposited data

Results flagged for a closer look

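Of 82 sets of 8 hashtag values examined, 1 held a value far from the rest by Dixon's test, and chance flags about 1 in 20. Usp1, which encodes the enzyme that takes ubiquitin off the clamp, stood at 103 CPM in hashtag 6 of experiment 2, where the next lowest hashtag had 114 CPM and the highest 123 CPM. Hashtag 6 was also the lowest hashtag for the sum there.

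Cells without a called hashtag entered no comparison. They numbered 535 in experiment 1, with a summed S-phase level of 4723 CPM, and 1879 in experiment 2, with 3438 CPM. The first value lies within the range of the called hashtags of its experiment, and the second lies below all 8 of them. Such cells include those with more than 1 strong hashtag and those with weak counts.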

How the results depend on the processing

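No paired analysis was possible because each experiment is 1 mRNA library and no label ties a hashtag to a condition. The highest-to-lowest ratio of the sum moved with several choices. For experiment 1 (1.2) it was 1.17 under a stricter cell filter (1000 genes, 5% mitochondrial UMIs), 1.17 without mt-, Rps and Rpl genes in the total, 1.36 as a mean over cells, 1.23 after thinning, 1.17 without the 5 most abundant members, and at lowest 1.18 with 1 member left out. It was 1.21 without the granulocyte, stromal, mast and B lineage clusters, 1.11 without cluster 5 and 1.245 in cells with Il2ra, all 3 chosen after seeing the data. For experiment 2 (1.18) it was 1.22 with stricter hashtag calls (100 counts and 5 times the second), 1.22 with TMM, 1.22 with DESeq2 size factors, 1.22 without mt-, Rps and Rpl genes, 1.21 as a mean over cells, 1.22 after thinning, 1.19 without the 5 most abundant members, at highest 1.19 with 1 member left out, 1.15 without those clusters and 1.17 in cells with Il2ra. With 1 hashtag left out the ratio ran from 1.15 (without hashtag 7) to 1.2 in experiment 1 and from 1.11 (without hashtag 6) to 1.18 in experiment 2, and the count of members past 1.5-fold from 0 to 1 in each. That count, 1 in each experiment, became 2 (Rfc2 and Ung) in experiment 1 with the stricter cell filter and 8 with means over cells. In experiment 2 it became 3 with stricter hashtag calls (Dscc1, Rfc2 and Tyms), 2 with HTODemux, 2 with the stricter cell filter, 2 with TMM, 2 with DESeq2 size factors and 2 with means over cells, each with Dscc1, and 4 after thinning (Prim1, Rad51ap1, Tyms and Wdr76). The share of all genes past 1.5-fold was not worked out under these settings. The ratio between experiments (0.843) was 0.855 with stricter hashtag calls, 0.833 with HTODemux, 0.90 with TMM, 0.906 with DESeq2 size factors, 0.871 without mt-, Rps and Rpl genes, 0.851 as a mean over cells, 0.861 after thinning, 0.828 without the 5 most abundant members, and 0.834 to 0.850 with 1 member left out. Single members turned above 1 between experiments with TMM (Prim1 1.03, Dscc1 1.01, Cdc45 1.03 and Chaf1b 1.02), with DESeq2 size factors (Prim1 1.04, Dscc1 1.01, Cdc45 1.03 and Chaf1b 1.02) and after thinning (Prim1 1.003). Rfc2, whose interval included 1, was 1.06 with TMM, 1.06 with DESeq2 size factors, 1.02 with stricter hashtag calls and 1.02 without mt-, Rps and Rpl genes. The ratio of the highest to the lowest cluster of at least 50 cells was 1.45 and 2.87, and became 1.5 and 3.61 at resolution 1.0 and 3.69 in experiment 2 with the listed cell-cycle genes kept in. The cause of these shifts was not tested, other than that leaving out hashtags, members or clusters changes what is summed. Depth limited the rarest members most, among them Dscc1 with as few as 274 UMIs in a hashtag.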

Other observations

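The genes of the neighbouring cell-cycle lists were more uneven over hashtags than the S-phase genes in experiment 1. The 49 G2/M genes, which act in mitosis, summed to 7882, 7908, 8314, 8638, 6905, 6880.2, 6729 and 6753 CPM in hashtags 1 to 8, a highest-to-lowest ratio of 1.28. Hashtags 1 to 4 were high and hashtags 5 to 8 low. The 67 histone genes summed to 1544, 1535, 1589, 1570.4, 1233, 1169, 1275 and 1233 CPM, with hashtags 1 to 4 again above 5 to 8 and a ratio of 1.36. The S-phase sum in hashtags 5 and 6 stood among the higher values instead. In experiment 2 the histone sum was 1241, 1221, 1353, 1517, 1191, 1139, 1679.9 and 1542 CPM, a ratio of 1.48, with hashtags 4, 7 and 8 above the others, and the G2/M sum was 6860.2, 7060.1, 6657, 7919.6, 6798, 6666, 7972 and 7943 CPM, high in the same 3 hashtags. Hashtag 8 there was the second lowest for S-phase genes. Histone transcripts are mostly without a poly(A) tail, so the histone counts rest on the minority that this chemistry captures.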
